A study of Solanum lycopersicum with 9 samples.

Results

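GLK1 and GLK2 are the GOLDEN2-like genes of tomato, 2 of the 23195 genes in the count table of this leaf RNA sequencing study. They were chosen by identifier: Solyc07g053630.3 is GLK1 and Solyc10g008160.3 is GLK2, and both rows were present and passed the filter on low counts that left 20480 genes to test. The identifiers place GLK1 on chromosome 7 and GLK2 on chromosome 10. RefSeq (assembly SLM_r2.1) lists the symbols GLK1 and GLK2 on the same chromosomes, but it holds 0 of the 23195 identifiers, so the genes are named here from their known identifiers and no sequence is shown.

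GLK proteins are transcription factors of the GARP family that act in the nucleus and switch on genes for chlorophyll synthesis, light-harvesting proteins and other parts of the photosynthetic apparatus. In Arabidopsis both copies act in leaves and can largely stand in for each other. In tomato GLK1 is known as the main copy of the leaf, while GLK2 acts in the green shoulder of the fruit and underlies the uniform ripening locus.

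The plants were wild-type tomato (Solanum lycopersicum) of the cultivar M82, grown in a greenhouse, with 3 biological replicates in each of 3 groups. In the defoliation group all leaves but the measured one were cut off. In the shading group the youngest fully expanded leaf stayed lit while foil covered the others. Control plants had neither treatment. Both treatments were started 1 week after the first flowers opened, and RNA came from the leaf left exposed or from a matching control leaf. The labels of the treated libraries carry the number 48 without a unit and those of the control libraries do not, so whatever it marks cannot be told apart from the treatments. The labels name leaf mesophyll, which could not be checked against marker genes because the table pairs no identifier with a gene name. Total counts per library lay between 17617138 and 31012772, with shading replicate 3 the shallowest.

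GLK1 was among the more abundant transcripts of the leaf and GLK2 was near the middle of the range. GLK1 averaged 164 CPM (CPM: counts scaled to library size by the TMM method) over the 9 libraries, a higher level than 95.5% of tested genes. GLK2 averaged 11.8 CPM, a higher level than 49.9% of them. These are read levels per gene, not per transcript length, and transcript lengths were not given, so the levels of GLK1 and GLK2 are not compared with each other.

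GLK1, the leaf copy, stood at 155, 194 and 214 CPM in the defoliation libraries (replicates 1, 2 and 3), at 158, 201 and 188 CPM in the shading libraries and at 157, 124 and 83.0 CPM in the control libraries. The 6 treated libraries therefore lay above the highest control value with 1 exception, defoliation replicate 1, which was just under control replicate 1. The counts behind these values were 4158, 6252 and 6738 after defoliation, 4028, 5713 and 2914 under shading and 4356, 3226 and 2408 in control leaves. Counting error alone would give a coefficient of variation of at most 2.04% at these depths. In RNA from many cells at once, more transcript per cell and a larger share of cells that express the gene cannot be told apart.

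GLK2, the fruit-shoulder copy, stood at 8.06, 11.8 and 17.1 CPM in the defoliation libraries, at 7.94, 12.2 and 14.6 CPM in the shading libraries and at 12.8, 12.1 and 9.93 CPM in the control libraries. The control values fell inside the range of either treatment. Its counts were 216, 380 and 536 after defoliation, 203, 347 and 226 under shading and 356, 314 and 288 in control leaves, where counting error alone would give a coefficient of variation of at most 7.02%.

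**Figure D1:**
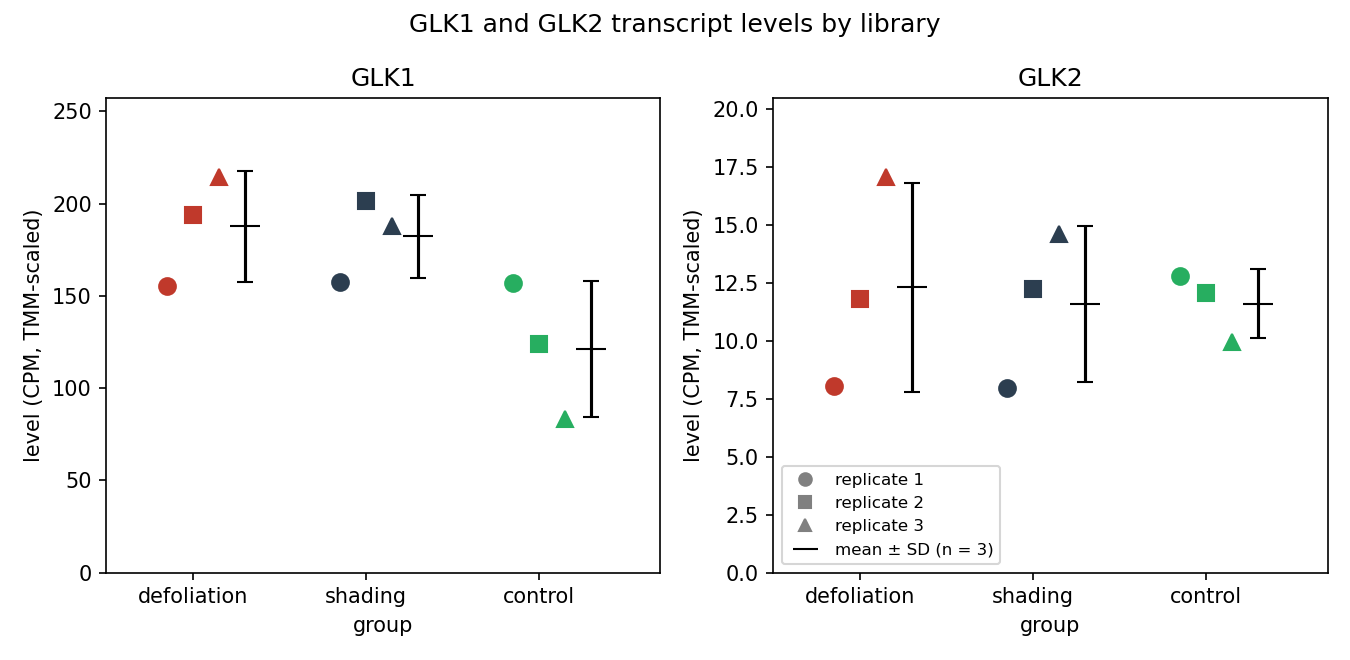
Level of GLK1 (left) and GLK2 (right) in CPM on the vertical axes, by group on the horizontal axes; symbols are the 3 libraries of a group and black bars the mean ± SD (n = 3). GLK1 averaged 188 CPM after defoliation and 182 CPM under shading, against 121 CPM in control leaves, while the GLK2 groups overlap throughout.

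GLK1 transcript was higher in the remaining leaf after defoliation, with an adjusted p just under the threshold, and GLK2 did not pass the test. GLK1 averaged 188 ± 30.1 CPM after defoliation and 121 ± 36.9 CPM in control leaves (SD, n = 3 each), a 1.55-fold difference with a 95% interval of 1.10- to 2.18-fold. Its log2 fold change was 0.63 ± 0.22 (SE, adjusted p = 0.0482, by the quasi-likelihood test of edgeR, adjusted by Benjamini-Hochberg over all tested genes, threshold 0.05). GLK1 was higher in 8 of the 9 pairs of a defoliation and a control library. By the same test 34.3% of all tested genes differed in this comparison and 18.9% were higher, so 1 call among the 2 genes is not set apart from that background. In all, 19.5% of tested genes had a larger positive log2 fold change than GLK1, and the genes called higher had a median of 1.02.

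The GLK1 call after defoliation was marginal and was lost in 7 of the 9 fits that left out 1 library. Only the fits without defoliation replicate 1 (log2 fold change 0.76, edgeR adjusted p = 0.0426) or control replicate 1 (0.86, 0.0193) kept it. Leaving out any of the other 7 libraries (defoliation replicate 2 or 3, shading replicate 1, 2 or 3, control replicate 2 or 3) gave adjusted p-values from 0.0532 to 0.142. The smallest log2 fold change, 0.42, came without control replicate 3, whose GLK1 level of 83.0 CPM was the lowest of all 9 libraries. Scaling the libraries by RLE or upper-quartile factors also ended the call, with log2 fold changes of 0.63 and 0.57 (edgeR adjusted p = 0.0512 and 0.0688). With all libraries kept, DESeq2 (log2 fold change 0.63, adjusted p = 0.0244) and limma-voom (0.67, adjusted p = 0.0407) did call it.

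GLK2 averaged 12.3 ± 4.52 CPM after defoliation and 11.6 ± 1.50 CPM in control leaves (SD, n = 3 each). The log2 fold change was 0.09 ± 0.28 (SE, edgeR adjusted p = 0.838). Its 95% interval of 0.686- to 1.64-fold includes the size seen for GLK1, so a change of that size in GLK2 is not excluded by these replicates.

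Under shading, GLK1 was higher by about the same amount as after defoliation, but the difference did not pass the threshold. It averaged 182 ± 22.5 CPM under shading and 121 ± 36.9 CPM in control leaves (SD, n = 3 each), a 1.50-fold difference with a 95% interval of 1.07- to 2.11-fold. The log2 fold change was 0.59 ± 0.22 (SE, edgeR adjusted p = 0.0673). All 3 shading libraries exceeded all 3 control libraries, the lowest shading value being 158 CPM and the highest control value 157 CPM. Groups separated in that direction were found for 23.1% of tested genes, and 16% of tested genes were called higher. DESeq2 called GLK1 under shading (log2 fold change 0.60, adjusted p = 0.0347), as did edgeR without control replicate 1 (0.82, 0.0279). Without control replicate 3 the log2 fold change was 0.38 (edgeR adjusted p = 0.18).

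GLK2 averaged 11.6 ± 3.37 CPM under shading and 11.6 ± 1.50 CPM in control leaves (SD, n = 3 each), with a log2 fold change of -0.01 ± 0.28 (SE, edgeR adjusted p = 0.99). The 95% interval ran from 0.641- to 1.55-fold. Both comparisons used the same 3 control libraries, so the GLK1 values after defoliation and under shading are not independent of each other.

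**Figure D2:**
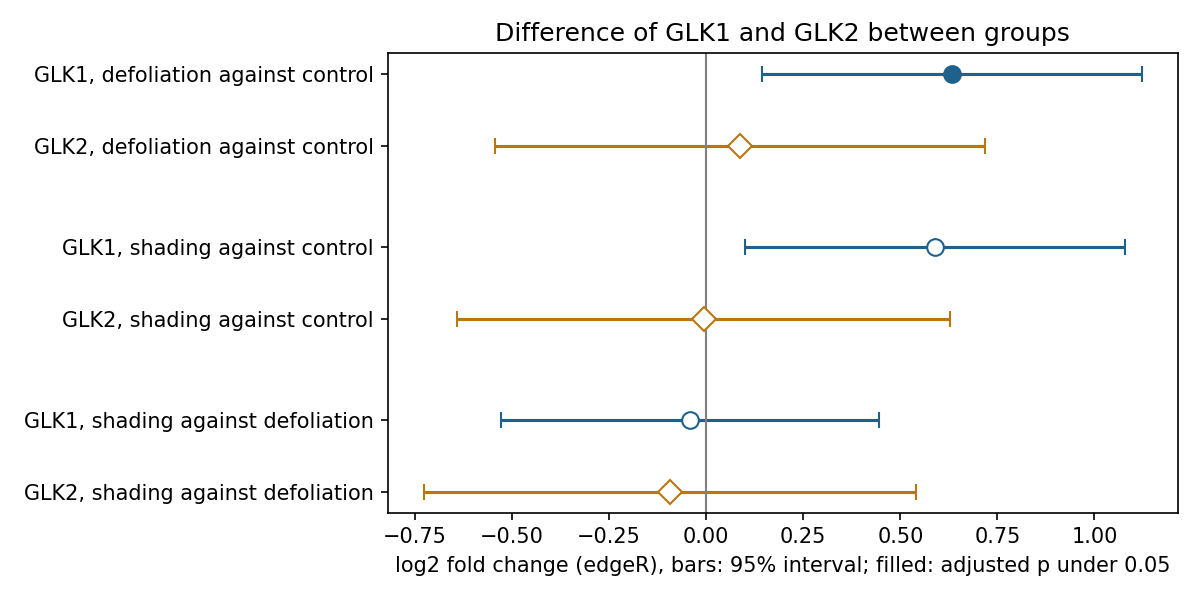
Log2 fold change on the horizontal axis with its 95% interval for each gene and comparison; a filled symbol marks an adjusted p under 0.05 in edgeR. Only GLK1 after defoliation is filled, its interval for shading also lies above 0, and the intervals of GLK2 and of shading against defoliation include 0.

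Between the treatments neither gene differed detectably. GLK1 averaged 182 ± 22.5 CPM under shading and 188 ± 30.1 CPM after defoliation (SD, n = 3 each), with a log2 fold change of -0.04 ± 0.22 (SE, edgeR adjusted p = 0.942) and a 95% interval of 0.693- to 1.36-fold. GLK2 averaged 11.6 ± 3.37 CPM under shading and 12.3 ± 4.52 CPM after defoliation, with a log2 fold change of -0.09 ± 0.28 (SE, edgeR adjusted p = 0.896) and a 95% interval of 0.604- to 1.45-fold. In this comparison 0.0146% of tested genes were called in all. The call for defoliation and the absence of one for shading are thus not a difference between the treatments.

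**Figure D3:**
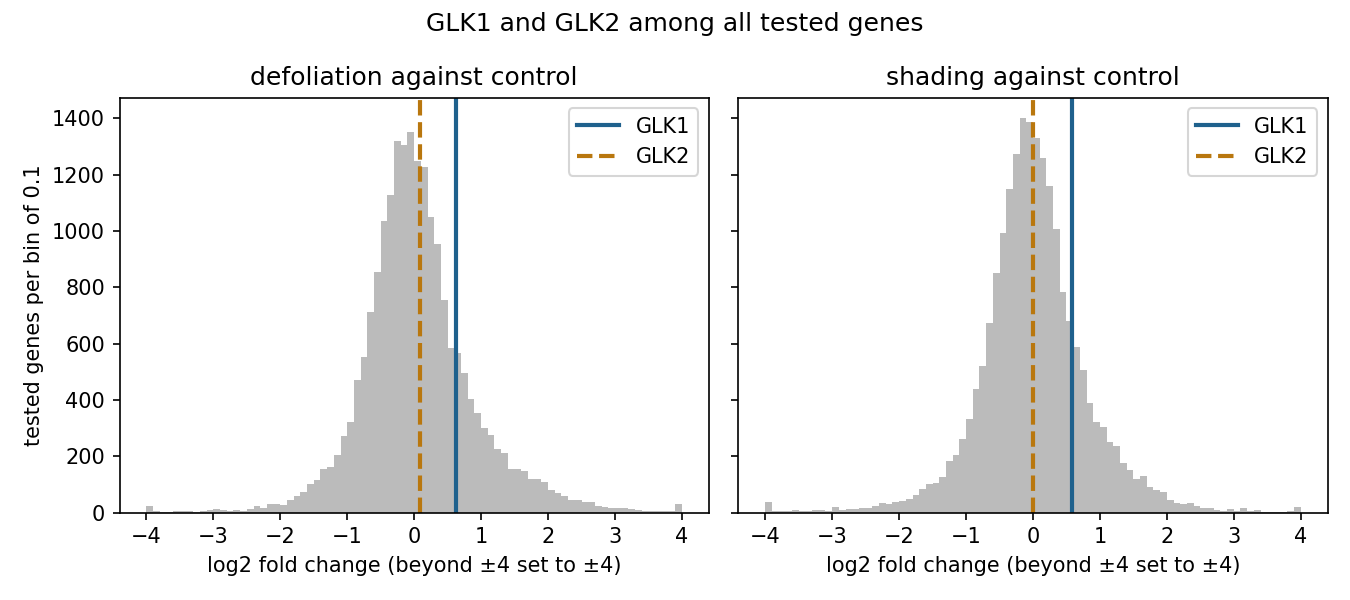
Number of tested genes (vertical axis) by log2 fold change against control (horizontal axis, bins of 0.1) for defoliation (left) and shading (right), with GLK1 as a solid and GLK2 as a dashed line. GLK1, at 0.63 and 0.59, lies on the right shoulder of both distributions, and GLK2, at 0.09 and -0.01, near their centres.

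Whether both genes changed by one factor was asked from their ratio within each library, which does not depend on how libraries are scaled. There were 19.2, 16.5 and 12.6 GLK1 reads per GLK2 read in the defoliation libraries, 19.8, 16.5 and 12.9 in the shading libraries and 12.2, 10.3 and 8.36 in the control libraries. In each group the ratio fell from replicate 1 to replicate 3. Every treated library was above every control library. Separation in 1 comparison taken alone was common among single genes. Levels separated from control in either direction for 51.9% of tested genes after defoliation and 46.3% under shading. They separated upward for 26.4% and 23.1%. The share of genes separated in both treatments at once was not computed. The share among ratios of other gene pairs was not computed either. Transcript lengths cancel only in the difference between groups, so the size of the ratio itself is not a ratio of transcript numbers.

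The log2 ratio averaged 3.98 ± 0.31 after defoliation and 3.34 ± 0.28 in control leaves (SD, n = 3 each), a difference of 0.64 (exact two-sided permutation test, p = 0.1). It averaged 4.01 ± 0.31 under shading and 3.34 ± 0.28 in control leaves, a difference of 0.67 (exact two-sided permutation test, p = 0.1). With 3 libraries against 3, 0.1 is the smallest p that test can give, and the adjusted value over the 3 comparisons was 0.15 for both. Shading and defoliation differed by 0.03 in the log2 ratio (exact permutation p = 0.7).

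With the 6 treated libraries set together against the 3 control libraries, a grouping chosen after seeing the data, the log2 ratio differed by 0.65 and was higher in 6 of 6 treated libraries. As the separation of these libraries was known when they were pooled, no test of the pooled ratio is given. In edgeR the mean of both treatments against control gave a log2 fold change of 0.61 ± 0.20 for GLK1 (SE, adjusted p = 0.0312) and 0.04 ± 0.25 for GLK2 (adjusted p = 0.913). The higher GLK1 level in both treatments was known as well, so the adjusted p of GLK1 is not a further test of it. In that contrast 38.1% of tested genes were called, and 19.6% were called higher.

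**Figure D4:**
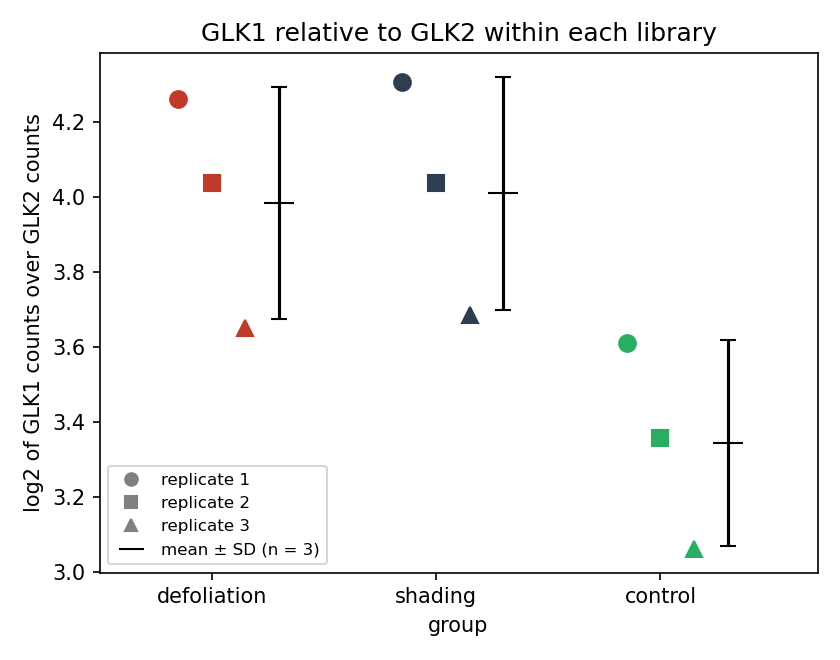
Log2 of GLK1 counts over GLK2 counts (vertical axis, not starting at 0) in each library, by group (horizontal axis), with the mean ± SD (n = 3) as black bars. The 6 treated libraries lie between 3.65 and 4.31, above the 3 control libraries at 3.06 to 3.61.

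Spread within groups differed between the genes. The coefficient of variation of GLK1 was 16% after defoliation, 12.3% under shading and 30.5% in control leaves, where the median over tested genes was 15.2%, 16.7% and 13.9% in the same order. That of GLK2 was 36.7% after defoliation, 29.1% under shading and 12.9% in control leaves. In these libraries GLK1 thus varied most among control leaves and GLK2 most among treated leaves. Each coefficient rests on 3 libraries, and the differences in spread were not tested.

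Within groups GLK1 and GLK2 deviated to the same side. In 9 of 9 libraries both genes lay on the same side of their own group mean of log2 CPM, also with RLE or upper-quartile scaling. Control replicate 3 and replicate 1 of each treatment were low in both genes, and the other 6 libraries were high in both. In defoliation replicate 2, however, GLK2 lay only 0.005 above its group mean. Deviations in a group are tied to each other through its mean, so the 9 libraries are not 9 independent agreements. The correlation of these deviations was 0.70 over the 9 libraries, which share their library preparation and scaling factor within a library, and 4.85% of the 13832 genes with a mean of at least 5 CPM correlated more closely with GLK1. Over the libraries with group means left in, Pearson's r between the genes was 0.45 and Spearman's rho 0.53.

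The genes whose profile over the 9 libraries was most like that of GLK1 by Pearson's r of log2 CPM were Solyc07g032100.3 (r = 0.97) and Solyc06g054570.1 (r = 0.96). The correlation includes the group means, so the levels of these genes by group follow from how they were chosen and are given without a test. The first averaged 34.6 ± 1.15 CPM after defoliation, 33.4 ± 1.62 CPM under shading and 28.6 ± 2.96 CPM in control leaves (SD, n = 3 each). Solyc06g054570.1 averaged 6.71 ± 2.60 CPM after defoliation, 7.68 ± 2.16 CPM under shading and 1.47 ± 1.36 CPM in control leaves (SD, n = 3 each), and it reached the minimum mean of 5 CPM only through the treated groups. For GLK1 63 of the 13832 genes compared reached an r of 0.9.

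GLK2 had fewer close matches, with 5 genes at an r of 0.9 or more. The closest were Solyc11g013830.2 (r = 0.94) and Solyc01g100490.3 (r = 0.92). Solyc11g013830.2 averaged 22.4 ± 4.09 CPM after defoliation, 21.9 ± 3.68 CPM under shading and 21.2 ± 1.15 CPM in control leaves. Solyc01g100490.3 averaged 52.3 ± 32.0 CPM after defoliation, 33.9 ± 13.0 CPM under shading and 31.3 ± 7.67 CPM in control leaves. The table gives no product for these 4 identifiers.

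The library kit does not mark strand, so reads of a gene that overlaps another cannot be told apart from it. Gene positions were not given, so whether an identifier listed next to GLK1 or GLK2 overlaps it is not known. The identifier listed next after GLK1 on chromosome 7 averaged 72.1 ± 8.46 CPM after defoliation, 76.2 ± 9.64 CPM under shading and 19.1 ± 8.30 CPM in control leaves (SD, n = 3 each). It rose in both treatments, with log2 fold changes of 1.92 ± 0.30 and 2.00 ± 0.30 (SE, edgeR adjusted p = 0.00147 and 0.00163). Its part in the GLK1 values was not tested. The identifier listed just before GLK1 averaged 37.8 ± 4.23 CPM after defoliation, 36.9 ± 7.04 CPM under shading and 42.2 ± 4.10 CPM in control leaves and did not pass (edgeR adjusted p = 0.458 and 0.378). The identifiers on either side of GLK2 had at most 5 counts in any library.

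**Figure D5:**
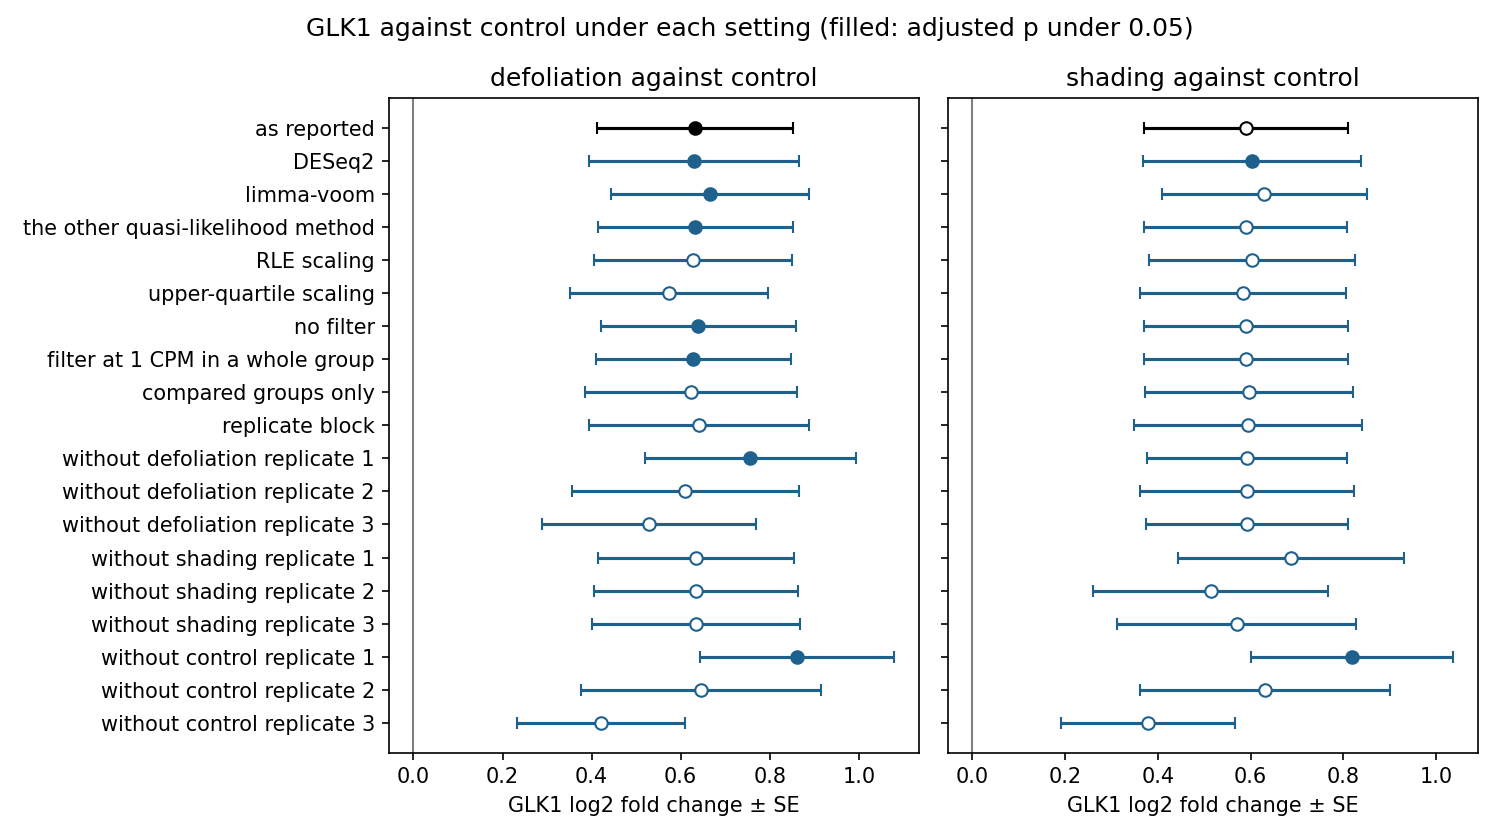
GLK1 log2 fold change ± SE (horizontal axis) against control for defoliation (left) and shading (right) under each setting listed on the vertical axis; filled symbols have an adjusted p under 0.05. Every value is above 0, from 0.42 to 0.86 for defoliation and from 0.38 to 0.82 for shading, and filled symbols are in the minority.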

How the data were processed

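Messenger RNA libraries of 9 tomato leaves were compared in 3 groups of 3. The authors deposited 1 table of RSEM expected counts, all of them whole numbers. Trim Galore, STAR, RSEM and DESeq2 were used, per the submitters' processing notes, with no version named. For the build and gene models: not given in the sources used here. Samples were assigned to groups by their titles and columns by the letter in each sample's description.

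Genes were filtered by filterByExpr (20480 of 23195 kept) and scaled by TMM. The test was edgeR 4.0.16 (R 4.3.3), robust quasi-likelihood with the version's default method, on all 9 libraries, with Benjamini-Hochberg adjustment over all tested genes at 0.05. SE is the log2 fold change divided by the square root of F. Log2 CPM used a prior count of 2, and count ratios a pseudocount of 0.5. The test was checked on simulated data with far fewer changed genes than were called against control here. The simulated spread was below the fitted spread of GLK1 and GLK2, so the check does not bear on the marginal GLK1 call.

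Alternatives were DESeq2 1.42.0, limma-voom (limma 3.58.1), other scalings, filters and quasi-likelihood settings, the compared groups alone, a replicate block and each library left out. The 2 genes always were named, with for each the 2 tested genes of at least 5 CPM most correlated with it. The genes, lists and tests were chosen with earlier results of these data known. The lists of GLK target genes, regulators and cell type markers could not be used, as 0 identifiers matched RefSeq. P-values measure the spread between these plants' libraries, and no replicate pair agreed within sampling noise.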

Additional observations from a re-analysis of the deposited data

How the results depend on the processing

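GLK1 stayed higher than control in all 18 alternatives of either treatment, but its calls did not hold. After defoliation the log2 fold change was 0.63 with RLE scaling, 0.57 with upper-quartile scaling and 0.62 with only the compared groups in the fit, none of which passed (edgeR adjusted p = 0.0512, 0.0688 and 0.0794). Under shading it passed with DESeq2 (0.60). Leaving out 1 library gave GLK1 values from 0.42 to 0.86 after defoliation (2 of 9 passed) and from 0.38 to 0.82 under shading (1 of 9). For the uncalled values, the sign of GLK2 under shading turned with RLE scaling (0.0097), the compared groups alone (0.0022) and DESeq2 (0.011), and that of GLK1 in shading against defoliation with upper-quartile scaling (0.010). Without 1 library GLK2 ranged from -0.22 to 0.32 after defoliation, from -0.20 to 0.21 under shading and from -0.32 to 0.22 between the treatments, and GLK1 from -0.16 to 0.063 between the treatments. The log2 ratio of GLK1 to GLK2 ranged from 0.50 to 0.81 after defoliation, from 0.52 to 0.83 under shading and from -0.14 to 0.19 between the treatments. The causes were not tested. Counts of all genes called moved by over 1.5 times between the treatments with DESeq2 (576 higher and 438 lower, against 2 and 1 in edgeR, where 3407 genes had an unadjusted p under 0.05). Leaving out 1 library moved that edgeR count to 0 without defoliation replicate 2 or 3, to 1 without shading replicate 1 or control replicate 1, and to 5 without defoliation replicate 1 or control replicate 3.

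Whether replicate numbers pair the libraries was not settled. Deviations from group means correlated above 0.1 in 2 of 9 same-numbered pairs (range -0.187 to 0.141). With the replicate number as a block GLK1 had a log2 fold change of 0.64 after defoliation and no longer passed (edgeR adjusted p = 0.0834), and 0 genes were called between the treatments. In the ratio the replicate block left the differences at 0.64 and 0.67, with an SD over the 3 number-matched differences of 0.046 and 0.038, against within-group SDs of 0.28 to 0.31 (exact sign-flip permutation p = 0.25, the smallest possible).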
